A study of Mus musculus with 8 samples.

Results

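The inflammatory genes Il1a, Il1b, Il1rn, Il1r1, Il1r2, Il6, Il6ra and Tnf were followed across the cells of tumour-bearing mouse liver. They were chosen by symbol and are 8 of the 33696 genes listed in each of 6 droplet single-cell mRNA libraries. Il1a, Il1b, Il6 and Tnf encode ligands, Il1rn encodes an inhibitor, and Il1r1, Il1r2 and Il6ra encode receptors. Each symbol named 1 row of the files, and all 8 genes had at least 1 unique molecular identifier (UMI, a tag for 1 captured mRNA molecule) in the kept cells of every library.

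The livers carried hepatocellular carcinoma raised by hydrodynamic tail vein injection, in which a large volume of plasmid solution drives DNA into hepatocytes. The 30 µg of plasmid held a CRISPR construct against Trp53, a c-Myc transposon and the SB13 transposase, and was given to male C57BL/6 mice aged 8 to 10 weeks, whose livers were taken 4 to 5 weeks later. Mice labelled Nr4a1 knockout were Nr4a1 fl/fl with Ncr1-iCre, and controls were floxed mice without Cre, so both groups carried the floxed allele and the tumours. Each group had 3 libraries, called knockout 1, 2 and 3 and control 1, 2 and 3 here. Knockout 3 pooled 2 mice and control 3 pooled 3 mice, while the labels call the others biological replicates without naming their animals. Cre driven from Ncr1 acts in natural killer (NK) cells and other Ncr1-expressing lymphoid cells. Which exons of Nr4a1 lie between the loxP sites is not given in the labels.

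Interleukin-1 alpha and interleukin-1 beta both signal through the receptor encoded by Il1r1. The antagonist encoded by Il1rn occupies that receptor without signalling, and the protein of Il1r2 is a decoy that binds interleukin-1 but passes on no signal. Interleukin-6 binds the protein of Il6ra, which pairs with the shared signalling chain gp130, and in liver this drives the acute phase response of hepatocytes. Tumour necrosis factor is made by myeloid cells and activated lymphocytes and signals through a pair of receptors found on most cells of the liver.

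After filtering, 2715, 134 and 4882 cells were kept in knockout 1, 2 and 3, and 2639, 547 and 9205 in control 1, 2 and 3, 20122 in all. The deposited matrices held 4232577 to 88186316 gene UMIs in the libraries labelled knockout and 4126740 to 122609032 in controls. Knockout 2 and control 2 stood apart, with a median mitochondrial share of 75.1% and 27.9% in barcodes of at least 500 UMIs, against 6.68% to 10.0% in the other libraries. Pairs of libraries shared between 0 and 15 cell barcodes. Nr4a1 itself was read at 145, 0 and 65.4 CPM (UMIs scaled to a common depth) in the NK-like cells of knockout 1, 2 and 3, against 85.2, 34.4 and 52.4 CPM in control 1, 2 and 3. Knockout 1 stood above all controls and knockout 3 within their range, so 2 of the 3 libraries went against the label, and since 3′ tags may lie outside the deleted part, this count checks the labels only in part. Ncr1, the gene whose promoter drives Cre, was read at 161, 574 and 248 CPM in the same cells of knockout 1, 2 and 3, against 739, 657 and 512 CPM in control 1, 2 and 3, with knockout 2 inside the control range. Marker UMIs assigned 17829 cells (88.6%) to 20 classes, written with "-like" below, of which 14 held at least 10 cells in at least 4 libraries. Statements on other or remaining classes cover these 14. None of the 8 genes was a marker, and 629 of the assigned cells lay near the margin between classes. The neutrophil-like class had 434 cells and the basophil- and mast-like class 248, whose counts therefore set the precision of the values that follow.

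The 250 bases before the start of the genes that led single cell classes are printed here, since Il1b, Il1r2 and Il1rn shared a leading class and Il6 had another. The sequences are those of RefSeq on GRCm38.p6, at chr5:30012864-30013113 (plus strand) for Il6, chr2:129371140-129371389 (minus strand) for Il1b, chr1:40085843-40086092 (plus strand) for Il1r2 and chr2:24336610-24336859 (plus strand) for the first of 3 starts of Il1rn. They run 5′ to 3′ towards the start, and capitals mark matches to 3 motifs searched on both strands.
Il6: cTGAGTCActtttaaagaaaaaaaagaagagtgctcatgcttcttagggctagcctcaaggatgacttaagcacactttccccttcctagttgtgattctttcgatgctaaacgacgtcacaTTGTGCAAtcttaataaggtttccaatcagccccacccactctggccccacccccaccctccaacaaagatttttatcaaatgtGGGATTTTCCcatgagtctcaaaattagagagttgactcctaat
Il1b: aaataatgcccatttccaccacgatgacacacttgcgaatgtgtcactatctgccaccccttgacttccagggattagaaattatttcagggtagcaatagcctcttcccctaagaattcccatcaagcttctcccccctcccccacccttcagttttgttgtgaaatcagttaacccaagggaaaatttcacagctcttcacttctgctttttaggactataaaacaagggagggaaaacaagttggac
Il1r2: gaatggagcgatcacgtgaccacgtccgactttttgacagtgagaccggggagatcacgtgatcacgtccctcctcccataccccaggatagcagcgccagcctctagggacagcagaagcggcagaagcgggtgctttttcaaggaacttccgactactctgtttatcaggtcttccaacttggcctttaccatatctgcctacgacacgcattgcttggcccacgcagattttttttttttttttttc
Il1rn: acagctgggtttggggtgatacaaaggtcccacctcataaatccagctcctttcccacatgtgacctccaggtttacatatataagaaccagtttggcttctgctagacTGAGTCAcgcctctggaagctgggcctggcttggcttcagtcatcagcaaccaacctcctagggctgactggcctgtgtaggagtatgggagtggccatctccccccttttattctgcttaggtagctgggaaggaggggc
The motifs were AP-1 (TGANTCA), C/EBP (TTGCNNAA) and NF-kB (a 10-base form), and no match overlapped another. The Il6 window held all 3, with AP-1 beginning 249, C/EBP 128 and NF-kB 44 bases before the start. The Il1rn window held AP-1 at 141 bases, and the windows of Il1b and Il1r2 held none of these letters. Among 32851 such windows of 27025 symbols, 6.75% held AP-1, 9.56% C/EBP and 0.356% NF-kB. All 8 genes matched the table, and the windows of Il1a and Il1r1 held 1 match each (AP-1 at 12 bases and, in the first of 2 windows, C/EBP at 133 bases), while those of Il6ra and Tnf held none.

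Classes that were a small part of the cells held most UMIs of 4 of the genes. Neutrophil-like cells were 2.16% of kept cells and held 0.510% of all UMIs, yet they held 71.4% of the Il1b UMIs (9429 of 13214) and 76.4% of the Il1r2 UMIs (4743 of 6208). Basophil- and mast-like cells, 1.23% of cells, held 73.4% of the Il6 UMIs (439 of 598). Endothelial-like cells, 6.83% of cells, held 54.2% of the Il1a UMIs (353 of 651) and 32.2% of the Il1r1 UMIs (1106 of 3438). More of the Il1r1 UMIs, 1750 of 3438, lay in hepatocyte-like cells. The UMIs of Il1rn, Il6ra and Tnf were spread over more classes, with the largest shares in neutrophil-like cells (31.1% of 965), hepatocyte-like cells (25.2% of 5491) and T-like cells (32.1% of 4517). Hepatocyte-like cells held 60.2% of all UMIs, so a large share there can go with a low CPM.

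**Figure D1:**
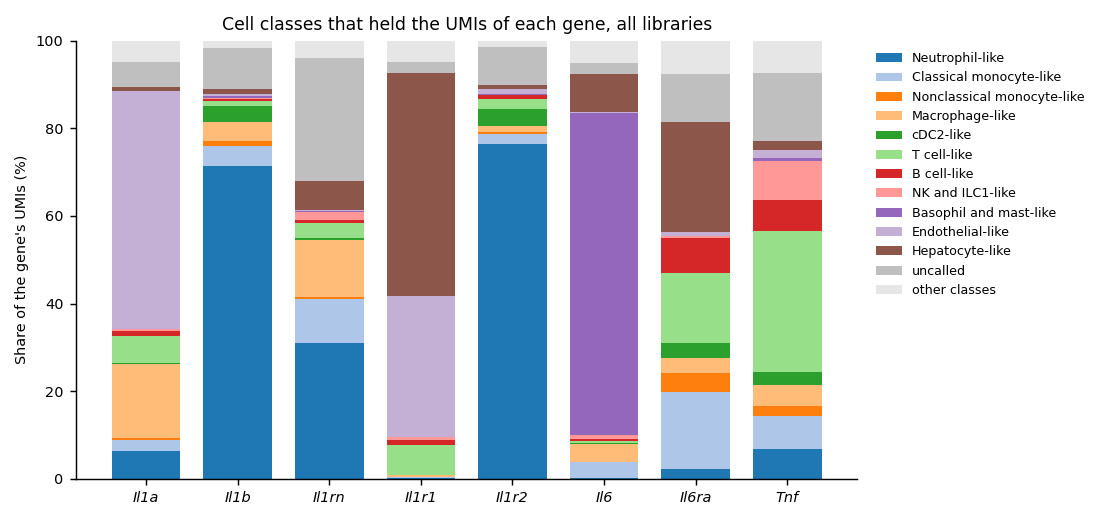
Stacked bars give, for each gene, the percentage of its UMIs in all 6 libraries that lay in each cell class (grey: cells assigned to no class, light grey: the remaining classes). Neutrophil-like cells filled 71.4% of the Il1b bar and 76.4% of the Il1r2 bar, and basophil- and mast-like cells 73.4% of the Il6 bar.

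Il1b (ENSMUSG00000027398, chromosome 2), the secreted ligand that needs cleavage by caspase-1, was read at 10792, 8099 and 6957 CPM in neutrophil-like cells of knockout 1, 2 and 3, against 7782, 11075 and 10203 CPM in control 1, 2 and 3. The groups overlapped, with knockout 3 lowest and control 2 highest. A UMI of Il1b was present in 80.5% to 100% of neutrophil-like cells per library, or in 76.3% to 99.1% after thinning each cell to 1000 UMIs, which left out 1 to 13 shallower cells per library. In B-like cells, taken as background, the thinned share was 0 to 0.491%, and the median depth was 2351 UMIs in the 398 neutrophil-like cells with Il1b and 1612.5 in the 36 without. The 10% of neutrophil-like cells with the most Il1b held 34.4% of its UMIs there. The 36 cells without Il1b included 8.33% with a UMI of Camp and 11.1% with Ngp, granule protein genes among the class markers, against 1.0% and 1.26% of the cells with Il1b. The cyclooxygenase gene Ptgs2 was found in 19.4% of the cells without Il1b, against 56.0% of those with it. These genes were chosen after their values were seen, the cells with Il1b were deeper, and no test was made.

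The other myeloid classes came far below neutrophil-like cells in Il1b. Type 2 conventional dendritic (cDC2)-like cells averaged 348 ± 203 CPM (SD, n = 4 libraries), macrophage-like cells 305 ± 156 CPM (n = 4), nonclassical monocyte-like cells 177 ± 79.3 CPM (n = 5) and classical monocyte-like cells 156 ± 50.5 CPM (n = 6). Their spreads overlapped. Exact sign-flip tests of neighbouring classes could not pass here, since the smallest p is 0.125 with 4 libraries and 6 libraries reach an adjusted p of 0.650 at best over 104 pairs. For every gene the neighbours were set by the mean CPM of the same libraries, so these tests do not establish an order. The top 10% of cDC2-like cells held 86.8% of the Il1b UMIs of that class, and 24.5% of its cells had any. Of its 476 Il1b UMIs, 126 lay in 1 cell of control 1. The class was weakly separated, with a median of 6 UMIs of its own markers per cell, against 5 of classical monocyte markers. A further 349 cells with cDC2 as best class stayed unassigned, against 233 assigned, and held 393 Il1b UMIs. Basophil- and mast-like cells averaged 107 ± 144 CPM with a range from 0 to 351 CPM, mature dendritic-like cells 55.3 ± 37.6 CPM and cDC1-like cells 32.6 ± 20.8 CPM. In endothelial-, T-, B-, plasmacytoid dendritic (pDC)-, NK- and hepatocyte-like cells the means were 0.535 to 6.61 CPM, below the 63.0 and 55.6 CPM of barcodes with at most 100 UMIs in knockout 3 and control 3, which stand for free RNA.

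Il1a (ENSMUSG00000027399, chromosome 2), the ligand that also acts at the cell membrane and in the nucleus, was highest on average in endothelial-like cells. Its levels there were 60.5, 116 and 96.7 CPM in knockout 1, 2 and 3, against 66.7, 52.9 and 48.1 CPM in control 1, 2 and 3. The groups overlapped through knockout 1 and control 1. Endothelial-like cells with a UMI of the sinusoidal genes Stab2 or Clec4g held 347 of the 353 Il1a UMIs, at 72.1 CPM, against 9.52 CPM in the 177 cells with neither. Neutrophil-like cells were read at 207, 32.5 and 20.2 CPM in knockout 1, 2 and 3, against 81.7, 0 and 11.2 CPM in control 1, 2 and 3, a spread wider than their mean of 58.8 ± 78.0 CPM (SD, n = 6). Macrophage-like cells averaged 36.9 ± 20.2 CPM (n = 4). Those with a UMI of the Kupffer cell genes Clec4f, Timd4 or Cd5l were at 69.6 CPM over all libraries, against 32.9 CPM in the others, a division chosen after values were seen. The libraries did not all go that way, with 81.9 against 39.9 CPM in knockout 3, 14.3 against 17.6 CPM in control 1 and 50.3 against 38.3 CPM in control 3. Classical monocyte-like cells averaged 12.8 ± 22.7 CPM and the remaining of the 14 classes 3.68 CPM or less, with no UMI in mature dendritic-like or basophil- and mast-like cells. Outside the 14, erythroid-like cells were at 27.3 CPM in knockout 3, against 2.87 CPM in control 3. By hashtag, mouse 2 of knockout 3 held 7 of these UMIs in 12 cells and mouse 1 held 0 in 15 cells.

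**Figure D2:**
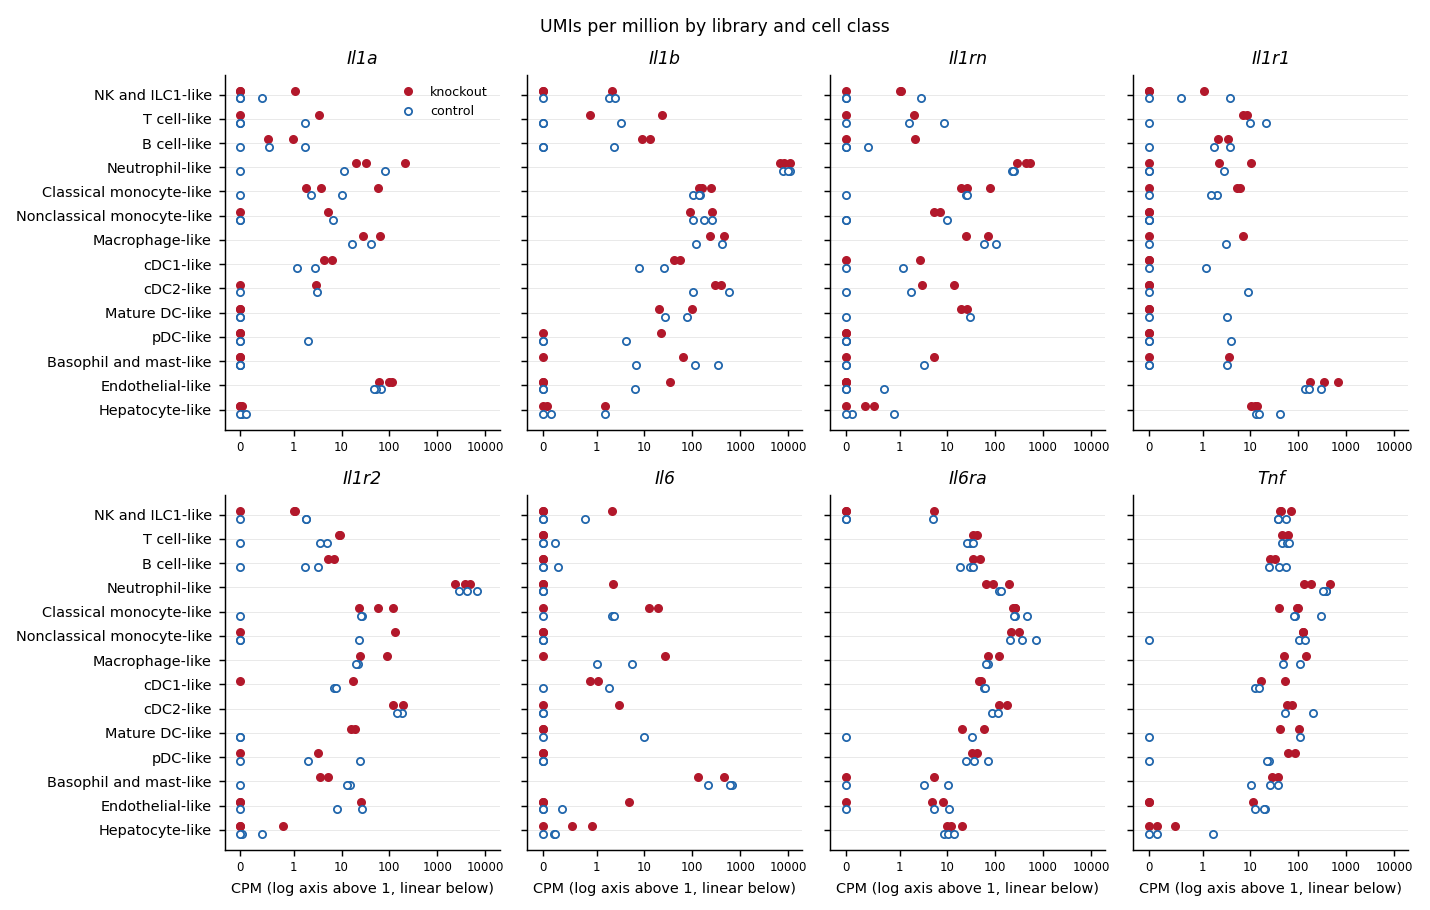
Each panel shows 1 gene, with the 14 cell classes down the page and the level in depth-scaled UMIs (CPM) along a log axis that is linear below 1. Filled red points are libraries labelled knockout and open blue points controls, drawn where a library held at least 10 cells of the class. Neutrophil-like cells averaged 323 CPM of Il1rn and 311 CPM of Tnf, and basophil- and mast-like cells 421 CPM of Il6, the highest class mean of each of these genes.

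Il1rn (ENSMUSG00000026981, chromosome 2), the receptor antagonist, also led in neutrophil-like cells. It was read there at 445, 520 and 278 CPM in knockout 1, 2 and 3, against 222, 241 and 231 CPM in control 1, 2 and 3. All 3 libraries labelled knockout lay above all 3 controls, with knockout 3 nearest to them; 10.8% of the 1269 genes tested in this class had groups that did not overlap. The log2 fold change was 0.83 with a standard error (SE) of 0.37, which did not pass the edgeR quasi-likelihood test (adjusted p = 0.923, Benjamini-Hochberg). The count was 43, 16 and 124 UMIs in knockout 1, 2 and 3, against 19, 16 and 82 UMIs in control 1, 2 and 3, from 13 to 195 cells per library. The mice of knockout 3 stood at 256 and 349 CPM and those of control 3 at 212, 343 and 191 CPM, so single mice of the groups overlapped.

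Macrophage-like cells followed with an Il1rn level of 64.1 ± 32.5 CPM (n = 4), then classical monocyte-like cells with 28.9 ± 26.0 CPM (n = 6) and mature dendritic-like cells with 18.7 ± 13.2 CPM (n = 4). The other classes averaged 4.54 CPM or less, and pDC-like cells had no UMI. A further 272 of the 965 Il1rn UMIs, or 28.2%, lay in cells assigned to no class. These were 154, 0 and 53 UMIs in knockout 1, 2 and 3, against 23, 1 and 41 UMIs in control 1, 2 and 3, so knockout 1 held more than all controls together. Of these UMIs, 69 lay in unassigned cells whose best class was cDC2, 68 in those nearest to nonclassical monocytes and 24 in those nearest to classical monocytes.

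Il1r1 (ENSMUSG00000026072, chromosome 1), the signalling receptor, was read in endothelial-like cells at 670, 348 and 174 CPM in knockout 1, 2 and 3, against 294, 138 and 168 CPM in control 1, 2 and 3. The groups overlapped, and knockout 1, with 50 cells, was highest. Within pairs of libraries with the same number, which deviated together in this class, the knockout value was the higher in 3 of 3, by little in the pair numbered 3. Cells with and without Stab2 or Clec4g were at 204 and 194 CPM, a division chosen after values were seen. Hepatocyte-like cells averaged 17.8 ± 11.9 CPM (n = 6) and held 1750 Il1r1 UMIs with 60.2% of all UMIs, beside the 14.9 and 11.5 CPM of free RNA in knockout 3 and control 3. Endothelial-like cells were above hepatocyte-like cells in 6 of 6 libraries (p = 0.031, exact sign-flip test, the smallest it can give, adjusted p = 0.650 over 104 neighbour pairs). Stellate- and fibroblast-like cells passed the minimum of 10 cells only in control 1 and control 3, at 102 and 179 CPM.

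T-like cells averaged 9.40 ± 7.78 CPM of Il1r1 (n = 5). NK-like cells averaged 0.905 ± 1.46 CPM (n = 6). All other classes averaged 2.57 CPM or less, and nonclassical monocyte-like cells had no UMI.

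Il1r2 (ENSMUSG00000026073, chromosome 1), the decoy receptor, was read in neutrophil-like cells at 3812, 2374 and 4813 CPM in knockout 1, 2 and 3, against 2858, 6832 and 4088 CPM in control 1, 2 and 3. The groups overlapped, and knockout 2 was the lowest and control 2 the highest. A UMI was present in 76.9% to 93.7% of these cells, or 71.8% to 92.0% after thinning, against a thinned 0 to 0.575% in B-like cells. Of the 388 neutrophil-like cells with Il1r2, 92.8% also held Il1b, against 82.6% of the 46 without, at median depths of 2376.5 and 1445.5 UMIs. The cDC2-like cells came next with 193.1 and 122 CPM in knockout 1 and 3, against 180 and 146 CPM in control 1 and 3. Classical monocyte-, macrophage- and nonclassical monocyte-like cells averaged 30.6 to 41.9 CPM with spreads of 32.8 to 56.3 CPM, and the other classes 0.207 to 10.1 CPM.

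**Figure D3:**
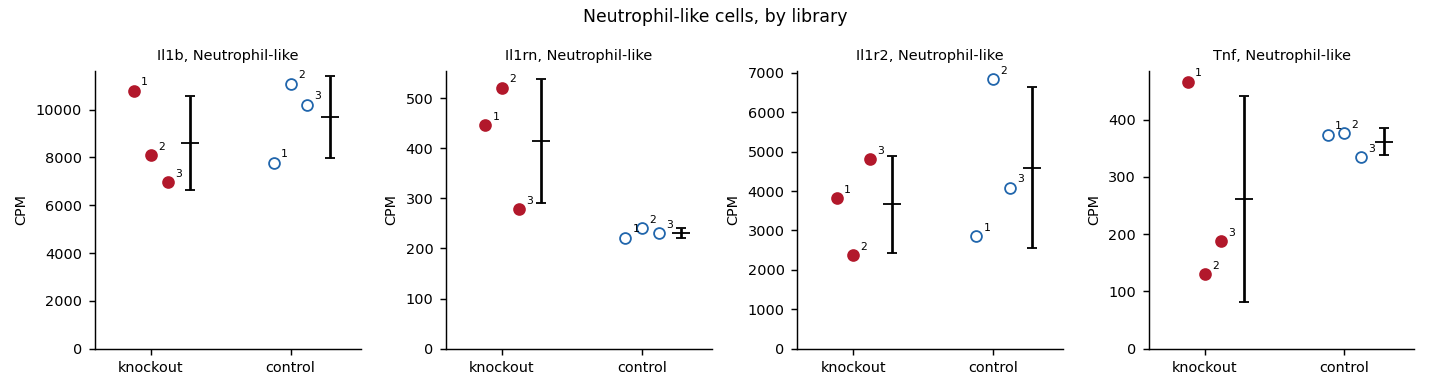
Levels in depth-scaled UMIs (CPM, axes from 0) in neutrophil-like cells, 1 point per library with its number, libraries labelled knockout (filled red) left of controls (open blue), and the mean with its SD beside them (n = 3 each). The groups overlapped for Il1b, Il1r2 and Tnf, and did not for Il1rn, with 278 to 520 CPM in the libraries labelled knockout and 222 to 241 CPM in controls.

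Il6 (ENSMUSG00000025746, chromosome 5), the pleiotropic ligand of the acute phase response, had most of its UMIs in 1 class. Basophil- and mast-like cells were at 449 and 130 CPM in knockout 1 and 3, against 684, 217 and 627 CPM in control 1, 2 and 3. These rested on 85 and 37 UMIs in knockout 1 and 3 and on 91, 21 and 191 UMIs in control 1, 2 and 3, and the groups overlapped through knockout 1. Knockout 2 held 14 Il6 UMIs in 3 such cells, under the minimum of 10 cells, and was not used. A UMI was found in 20% to 59.0% of these cells, or in 6.90% to 29.5% after thinning, against a thinned 0 to 0.0442% in B-like cells. The top 10% of the class held 73.6% of its Il6 UMIs. The class held a median of 18 UMIs of its own markers per cell, against 24 of neutrophil markers. It mixed basophil-like cells with cells that held UMIs of the mast cell proteases Cma1, Tpsb2 or Mcpt4. In a division chosen after values were seen, the 202 cells without these proteases had Il6 at 532 CPM, against 109 CPM in the 46 cells with them, while Tnf stood at 14.2 against 75.3 CPM. These pool the cells of all libraries, and only knockout 3 held at least 10 cells with the proteases. The Tnf values rest on 11 and 18 UMIs. Of the 26 Il6 UMIs in cells with the proteases, 16 lay in 9 cells of knockout 1 and 0 in 20 cells of knockout 3. In cells without the proteases, the class marker Mcpt8 was at 3855 and 5364 CPM in knockout 1 and 3. It was at 612, 490 and 564 CPM in control 1, 2 and 3. The cells of this class were thus not alike between the groups, and the part of this in the Il6 values was not tested. Macrophage-like cells averaged 8.37 ± 12.6 CPM, classical monocyte-like cells 6.08 ± 8.10 CPM and all other of the 14 classes 2.48 CPM or less, against 2.00 and 2.02 CPM in free RNA of knockout 3 and control 3. Neutrophil-like cells held 1 UMI in all. Outside the 14 classes, stellate- and fibroblast-like cells were at 0 and 13.8 CPM in control 1 and 3.

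Il6ra (ENSMUSG00000027947, chromosome 3), the ligand-binding receptor chain, was highest in monocyte-like cells. Classical monocyte-like cells stood at 254, 234 and 255 CPM in knockout 1, 2 and 3, against 262, 454 and 248 CPM in control 1, 2 and 3. All but control 2, with 10 cells and 9 UMIs, lay between 234 and 262 CPM. Nonclassical monocyte-like cells had 213 and 318 CPM in knockout 1 and 3, against 204, 705 and 361 CPM in control 1, 2 and 3, and did not differ from the classical class beyond that spread. Next came cDC2-like cells with 124 ± 36.6 CPM (n = 4), neutrophil-like cells with 123 ± 44.9 CPM (n = 6), macrophage-like cells with 81.2 ± 26.1 CPM (n = 4) and cDC1-like cells with 53.9 ± 6.82 CPM (n = 4).

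Lymphoid classes divided in Il6ra. T-like cells averaged 32.8 ± 5.85 CPM (n = 5) and B-like cells 33.2 ± 10.9 CPM (n = 5), while NK-like cells were at 5.20, 0 and 0 CPM in knockout 1, 2 and 3, against 0, 0 and 4.94 CPM in control 1, 2 and 3. Hepatocyte-like cells, the textbook target of interleukin-6, averaged 12.4 ± 4.33 CPM (n = 6), below the 20.2 and 16.9 CPM of free RNA in knockout 3 and control 3. These cells were deep, with a median of 35295.5 UMIs per cell against 3988 in T-like cells, so a low CPM need not mean few UMIs per cell. An Il6ra UMI was found in 27.7% of them. The pDC-like, mature dendritic-like, endothelial-like and basophil- and mast-like cells averaged 3.78 to 41.2 CPM.

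**Figure D4:**
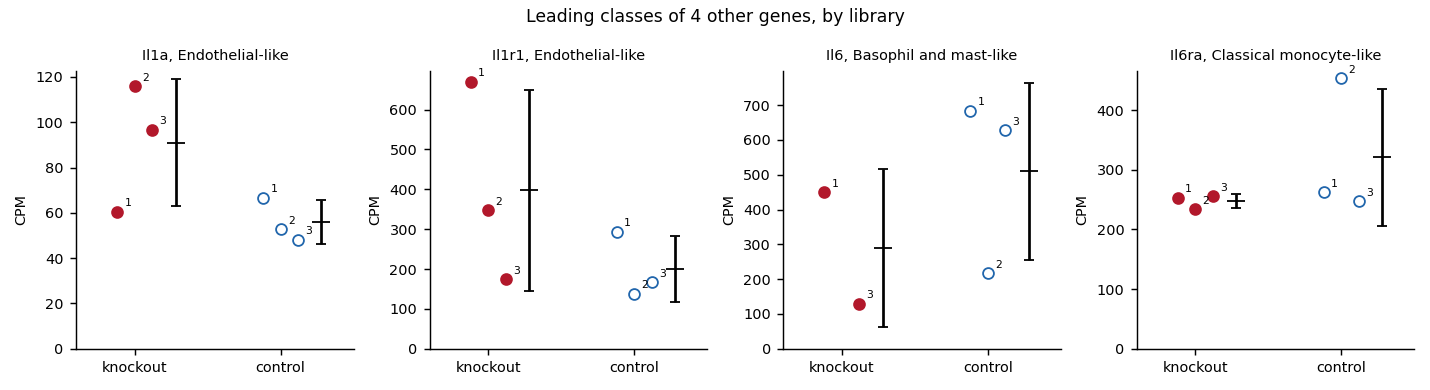
Levels in depth-scaled UMIs (CPM, axes from 0) of Il1a and Il1r1 in endothelial-like cells, Il6 in basophil- and mast-like cells and Il6ra in classical monocyte-like cells. Filled red points are libraries labelled knockout, left of the open blue controls, with library numbers and mean ± SD. Knockout 2 held under 10 basophil- and mast-like cells and is not drawn for Il6. The groups overlapped in all 4 panels.

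Tnf (ENSMUSG00000024401, chromosome 17) was the most widely spread of the ligands. Neutrophil-like cells stood at 466, 130 and 188 CPM in knockout 1, 2 and 3, against 373, 376 and 335 CPM in control 1, 2 and 3. The controls lay close together and inside the range of the libraries labelled knockout. Neutrophil-like cells were above classical monocyte-like cells in 6 of 6 libraries, in an order set by these same values (exact sign-flip p = 0.031, the smallest it can give, adjusted p = 0.650). Classical monocyte-like, nonclassical monocyte-like, cDC2-like and macrophage-like cells followed with means of 88.7 to 116 CPM and SDs of 47.2 to 93.6 CPM, so their order was not resolved. Mature dendritic-like cells averaged 63.3 ± 52.2 CPM, T-like cells 55.0 ± 8.15 CPM and NK-like cells 47.8 ± 13 CPM. NK-like cells had 70.7, 41.0 and 42.9 CPM in knockout 1, 2 and 3, against 38.1, 56.1 and 38.1 CPM in control 1, 2 and 3, and the groups overlapped. T-like cells held the largest share of Tnf UMIs, and 80.6% of these lay in the top 10% of T-like cells. The remaining classes averaged 38.6 CPM or less, down to 0.396 CPM in hepatocyte-like cells. Outside the 14, granulocyte progenitor-like cells were at 36.3 and 77.1 CPM in knockout 1 and 3, against 63.8 CPM in control 1.

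Differences between classes were tested in 1 edgeR quasi-likelihood fit over 71 sums per library and class and 10660 genes, with library as a block, and calls used a Benjamini-Hochberg adjusted p under 0.05. Over 9 contrasts, 30 of the 72 tests of the 8 genes passed, 13 higher and 17 lower. Neutrophil-like against classical monocyte-like cells gave 5 higher and 0 lower genes, where 38.8% of all genes passed, 16.2% higher and 22.6% lower, and the median over all genes was -0.32. The log2 fold changes were 7.42 (SE 0.51) for Il1r2, 6.34 (SE 0.63) for Il1b, 4.08 (SE 0.35) for Il1rn, 3.71 (SE 0.61) for Il1a and 2.32 (SE 0.36) for Tnf, with adjusted p from 1.9e-20 to 1.15e-06. Il6ra did not pass at -0.54 (SE 0.24, edgeR adjusted p = 0.066).

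Macrophage-like cells exceeded classical monocyte-like cells in Il1a (log2 fold change 3.04, SE 0.56) and Il1rn (1.20, SE 0.39), and fell below them in Il6ra (-1.72, SE 0.25). For that contrast 15.5% of all genes were higher and 10.7% lower. In cDC2-like cells, Il1r2 was higher (2.37, SE 0.50), while Il1rn (-2.49, SE 0.68) and Il6ra (-0.90, SE 0.24) were lower, beside 13.9% and 13.2% of all genes. That class was weakly separated from classical monocyte-like cells by markers, and the part of this was not tested. Of the 8 genes, 5 were lower in cDC1-like cells (Il1b, Il1r2, Il1rn, Il6ra and Tnf, beside 23.5% of all genes), 4 in pDC-like cells (Il1b, Il1r2, Il1rn and Il6ra, beside 18.8%) and 1, Il6ra, in mature dendritic-like cells (-2.92, SE 0.35, beside 17.4%). None passed between nonclassical and classical monocyte-like cells, where 8.10% of all genes passed (3.33% higher and 4.77% lower) and 2 of the 8 had an unadjusted p under 0.05.

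NK-like cells were below T-like cells in Il6ra (log2 fold change -3.62, SE 0.32), Il1r1 (-2.20, SE 0.48) and Il1r2 (-2.13, SE 0.75), where 7.50% of all genes were lower and 5.98% higher, and Tnf did not pass (-0.21, SE 0.33, edgeR adjusted p = 0.772). The Il1r2 call was lost in 7 of its alternative settings. Endothelial-like cells exceeded hepatocyte-like cells in 5 genes, with Il1a at 8.83 (SE 0.53), Il1r2 at 4.36 (SE 0.59), Tnf at 3.60 (SE 0.48), Il1r1 at 3.36 (SE 0.23) and Il1b at 2.64 (SE 0.75), and were lower in Il6ra (-1.33, SE 0.31). There 39.6% of all genes were higher and 41.0% lower, and scaling by size factors in place of TMM moved the median of all genes to -0.40. Where means are low, as for Il1b, Il1r2 and Tnf in endothelial-like cells (6.61 to 10.5 CPM), free RNA stood at 18.0 to 63.0 CPM in knockout 3 and 25.3 to 55.6 CPM in control 3, and its part was not tested.

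Within cell classes, no difference between the libraries labelled knockout and the controls passed the test for any of the 8 genes where it could be tested. Alternatives in which Il1b or Tnf passed were no filter on low counts, a replicate block and the removal of a library that left a single library in a group. Of 112 combinations of gene and class, 46 passed the filter on low counts, and 0 of the 46 passed the edgeR quasi-likelihood test at an adjusted p of 0.05, with 5 at an unadjusted p under 0.05, beside 1.95% of all tests (1804 of 92475), and DESeq2 called 0 as well. Over all genes in the 14 classes, 0.00433% of tests passed (4 of 92475), namely Mpo, Mcpt8 and Ctsg in basophil- and mast-like cells (0.0909% of the genes tested there) and Serpine2 in NK-like cells (0.0123%). The log2 fold changes of the 46 ran from -1.75 to 2.43 with a median of 0.11, 27 positive and 19 negative, and the lowest adjusted p of edgeR was 0.610. The groups did not overlap in 11 of the 46, beside 14.8% of all tests of genes in these classes. By class that share of all genes was 3.98% in hepatocyte-, 4.89% in endothelial-, 6.63% in NK-, 8.61% in classical monocyte- and 30.8% in basophil- and mast-like cells. Since a gene that passes the filter only through a group where it is high must differ, these counts describe the 46 and not all 112.

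**Figure D5:**
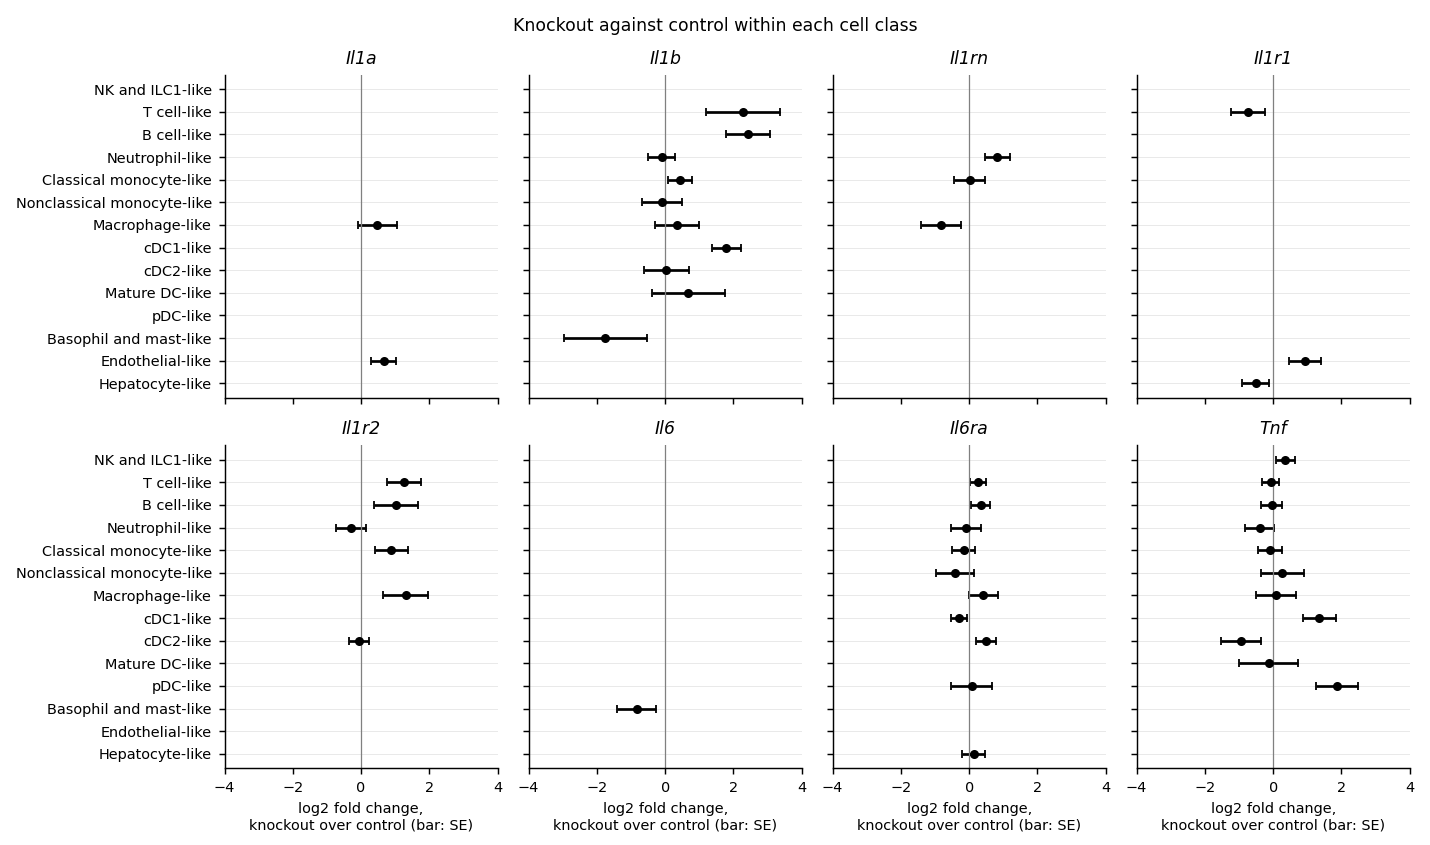
Log2 fold changes of the libraries labelled knockout over controls from edgeR, with bars of 1 SE, for each of the 8 genes (panels) in the classes where it passed the filter on low counts (rows). None of the 46 values, which ran from -1.75 to 2.43, passed the adjusted test.

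In neutrophil-like cells the log2 fold change was 0.83 (SE 0.37) for Il1rn, -0.11 (SE 0.39) for Il1b, -0.29 (SE 0.44) for Il1r2, -0.40 (SE 0.41) for Tnf and -0.09 (SE 0.45) for Il6ra. In endothelial-like cells it was 0.66 (SE 0.37) for Il1a and 0.94 (SE 0.47) for Il1r1. Il6 in basophil- and mast-like cells gave -0.84 (SE 0.58), Il6ra in classical monocyte-like cells -0.16 (SE 0.34) and Tnf in NK-like cells 0.36 (SE 0.28). All these fits left out the replicate number, also in endothelial-, classical monocyte- and NK-like cells, where same-numbered libraries deviated together. In those 3 classes the genes named here passed in 0 of 16 alternatives each, the replicate block among them. Single libraries moved several of these values. Without knockout 1, Il6 in basophil- and mast-like cells was -1.92, Il1r1 in endothelial-like cells 0.22 and Tnf in neutrophil-like cells -1.05. Without knockout 3, Il6 was -0.19 and Tnf -0.10 in the same classes. Counts were also simulated with the depth of the neutrophil-like cells and a single fixed spread, which was not matched to the 8 genes. Of 100 well-counted genes changed at each fold, 93 at 2-fold and 87 at 4-fold passed the filter on low counts. Of these, 51 and 87 were recovered, with 3 false calls. This does not tell how often changes of the 8 genes would be found. Classical monocyte-like cells were a class in which same-numbered libraries deviated together, and with the replicate number as a block 27 of all genes passed there, against 0 without it, and none of them was among the 8.

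The 5 smallest unadjusted p-values belonged to classes with low levels of the gene concerned. Il1b in B-like cells was at 13 and 8.97 CPM in knockout 1 and 3, against 0, 0 and 2.32 CPM in control 1, 2 and 3 (log2 fold change 2.43, SE 0.64, edgeR adjusted p = 0.755). The 25 UMIs of knockout 1 lay in 3 of 571 cells. Il1b passed the filter on low counts here only through the libraries labelled knockout. Its small p-value and lack of overlap were thus partly set by the filter. With the replicate number as a block, Il1b passed in B-, cDC1- and T-like cells, where pairing by number was not checked. Of all genes, 63 of 10002, 6 of 7872 and 35 of 12238 passed in these classes, against 0 in each without the block. Neutrophil markers summed to 81.7 and 88.7 CPM in the B-like cells of knockout 1 and 3, against 70.1, 18.6 and 79.8 CPM in control 1, 2 and 3, with 9 of 14 markers detected in the libraries labelled knockout and 10 of 14 in controls, and Ly6g, Mmp8 and Ltf at 0 in both. Their part in the Il1b values was not tested.

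Il1b in cDC1-like cells was at 56.0 and 41.4 CPM in knockout 1 and 3, against 25.1 and 7.78 CPM in control 1 and 3 (log2 fold change 1.79, SE 0.43, edgeR adjusted p = 1). Neutrophil markers summed to 24.5 and 31.8 CPM in cDC1-like cells of knockout 1 and 3, against 18.1 and 47.3 CPM in control 1 and 3, with 10 of 14 detected in the libraries labelled knockout, 7 of 14 in controls, and Mmp9, Mmp8 and Ly6g at 0 in both. Tnf in the same cells was at 54.2 and 17.0 CPM in knockout 1 and 3, against 12.6 and 15 CPM in control 1 and 3 (1.35, SE 0.48). The groups did not overlap for either gene, as for 28% of all genes in this class. Leaving out knockout 3 or control 1 brought Il1b in cDC1-like cells past the threshold, and leaving out knockout 3 did so for Tnf.

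Tnf in pDC-like cells stood at 85.9 and 61.2 CPM in knockout 1 and 3, against 24.0, 0 and 22.1 CPM in control 1, 2 and 3 (log2 fold change 1.88, SE 0.61, edgeR adjusted p = 1). Il1r2 in T-like cells stood at 8.77 and 9.08 CPM in knockout 1 and 3, against 4.97, 0 and 3.48 CPM in control 1, 2 and 3 (1.24, SE 0.50). Neither pair of groups overlapped, as for 15.7% of all genes in pDC-like and 16.3% in T-like cells. Tnf passed the filter on low counts in pDC-like cells only through the libraries labelled knockout. Its small p-value and lack of overlap there were thus partly set by the filter. Il1b in T-like cells was at 0.877 and 23.0 CPM in knockout 1 and 3, against 0, 0 and 3.27 CPM in control 1, 2 and 3 (2.28, SE 1.08). Of the 104 UMIs behind the value of knockout 3, which lay in 12 cells, the cells that hashtags gave to a single mouse held 8 and 2.

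Over all kept cells, where fewer cells of a type and less RNA per cell cannot be told apart, 0 of the 8 genes passed (0 with an unadjusted p under 0.05), as did 0 of all 17650 genes tested, while DESeq2 called 11 of all genes and 0 of the 8. Il1b was at 74.1, 309 and 69.0 CPM in knockout 1, 2 and 3, against 37.3, 369 and 53.9 CPM in control 1, 2 and 3, highest in both libraries numbered 2. The share of neutrophil-like among assigned cells was 1.75%, 12% and 4.49% in knockout 1, 2 and 3, against 2.07%, 6.33% and 1.32% in control 1, 2 and 3 (exact permutation p = 0.6, smallest possible 0.1). Il1rn was at 9.72, 29.3 and 4.18 CPM in knockout 1, 2 and 3, against 2.00, 9.65 and 3.79 CPM in control 1, 2 and 3, with a log2 fold change of 1.51 (SE 0.76, edgeR adjusted p = 1). The share of classical monocyte-like cells was 13%, 13.9% and 4.23% in knockout 1, 2 and 3, against 7.30%, 2.18% and 3.19% in control 1, 2 and 3 (exact permutation p = 0.2).

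The pathways around the 8 genes were read from 9 lists of 116 genes, chosen with earlier results of these data known. Of 785 tests of gene and class, 0 passed in edgeR (23 with an unadjusted p under 0.05), with 381 log2 fold changes positive, a median of -0.02 and a lowest adjusted p of 0.395. By list, the medians ran from -0.10 for interleukin-1 family ligands and receptors (34 tests, 15 positive) to 0.04 for interleukin-6 receptor signalling (119 tests, 64 positive), except for acute phase genes. Their median was -0.44 over 61 tests, with 16 positive and 9 at an unadjusted p under 0.05. In hepatocyte-like cells, which make these proteins, the median was -0.02 over 19 tests, and the other tests lay in other classes. Hepatocyte markers varied between libraries beside them, and their summed levels overlapped between the groups, for example at 102 and 639 CPM in B-like cells of knockout 1 and 3, against 398, 186 and 1030 CPM in control 1, 2 and 3, with all 14 markers detected in both groups. Their part was not tested. In classical monocyte-like cells, where libraries were paired by number, Zfp36l1, which encodes an mRNA decay factor, passed only with the replicate block (log2 fold change 1.29).

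Of 109 list genes with at least 50 UMIs, endothelial-like cells had the highest mean of 18, neutrophil-like cells of 17, hepatocyte-like cells of 15, nonclassical monocyte-like cells of 13 and basophil- and mast-like cells of 6. Neutrophil-like cells had the highest mean of Nlrp3, the inflammasome sensor upstream of interleukin-1 beta cleavage (758 ± 249 CPM, n = 6), of Il1rap, the co-receptor of Il1r1 (380 ± 110 CPM), of Osm, an interleukin-6 family ligand (749 ± 308 CPM), and of Il36g (399 ± 187 CPM). Pycard, the adaptor of that inflammasome, was highest in cDC2-like cells at 360 ± 27.9 CPM (n = 4), and Casp1 in classical monocyte-like cells at 60.5 ± 33.6 CPM (n = 6). Endothelial-like cells led Il6st, which encodes gp130 (721 ± 161 CPM, n = 6), and Tnfrsf1a, the broadly expressed tumour necrosis factor receptor (188 ± 52.2 CPM, n = 6). Nonclassical monocyte-like cells led Tnfrsf1b, the second of these receptors, at 500 ± 259 CPM (n = 5). Basophil- and mast-like cells led Il1rl1, the interleukin-33 receptor (354 ± 148 CPM, n = 5), Il18r1 (474 ± 129 CPM) and Il18rap (533 ± 213 CPM), the subunits of the interleukin-18 receptor. These genes were picked from the lists after their values were seen, and their order among classes was not tested.

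Genes with the most similar pattern were ranked by Pearson correlation of log2(CPM + 10) over 83 sums per library and class, which come from 6 libraries and 19 classes and share depth and free RNA. For Il1b these were Nlrp3 (r = 0.877), Ccrl2 (0.864) and Gm34084 (0.862), followed among the 8 genes by Il1r2 (0.859) and Il1rn (0.827). For Il1r2 they were Ptgs2os2 (0.918), Scrg1 (0.894) and Pira2 (0.890), and for Il1rn Clec4d (0.903), Arg2 (0.897) and Slc7a11 (0.894). Il1a came closest to Mrc1 (0.751), Lhfpl2 (0.743) and Stab1 (0.704), of which Mrc1 and Stab1 encode scavenging receptors of sinusoidal endothelium and macrophages. Il1r1 came closest to Ephb4 (0.947), Dlc1 (0.932) and Phldb2 (0.931), and Il6 to Atp8b5 (0.942), Mcpt4 (0.939) and Csrp3 (0.938), of which Mcpt4 is a mast cell protease. Among the genes most similar to Il6ra were Sirpb1b (0.858) and Rasgrp4 (0.851). Tnf came closest to Slfn2 (0.798), Rhog (0.783) and Gm57271 (0.782).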

How the data were processed

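Droplet single-cell mRNA was measured in 3 libraries labelled knockout and 3 controls. The authors deposited raw UMI counts per gene and barcode, made, per the file headers, with Cell Ranger 7.0.1 for libraries numbered 1 and 2 and with Cell Ranger 9.0.1 for those numbered 3, on GRCm39 per the submitters' processing notes. Here, barcodes under 500 UMIs or 300 genes, or over 20% mitochondrial UMIs, were dropped, and barcodes like free RNA and Scrublet doublets (0.8% expected per 1000 cells) were removed. Classes were called from 187 markers by a scoring rule set after the cells were seen, and Leiden clusters gave an alternative. UMIs were summed per library and class with at least 10 cells and tested with edgeR 4.0.16 (quasi-likelihood, TMM, R 4.3.3), with Benjamini-Hochberg adjustment over all genes tested. DESeq2 1.42.0 was an alternative. Libraries are the units, and labels do not name the animals of those numbered 1 and 2, so p-values may measure technical spread. Intervals of counts cover counting error only.

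Deviations of same-numbered libraries correlated at over 0.1 in each pair in classical monocyte-, endothelial-, hepatocyte- and NK-like cells, which were therefore read as paired by number. Only classes with at least 10 cells in all 6 libraries were checked, and neutrophil-like cells did not exceed 0.1 in each pair. The number also separates the Cell Ranger versions. The members and lists were chosen with earlier results of these data known. Named genes were the 8 members, list genes that passed, and for each member the 3 genes of most similar pattern (1 of them is not reported here); other genes were named after their values were seen. The script was tested on simulated data.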

Additional observations from a re-analysis of the deposited data

How the results depend on the processing

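Of 262 alternative values of the named fold changes between libraries labelled knockout and controls, 249 kept their direction and side of the threshold, 7 passed it and 6 turned direction. None of the 8 genes passed within classes in the analysis reported, but 1 did with no filter on low counts (Il1b in cDC1-like cells), and leaving out 1 library gave 0 to 2. Without control 1 these were Il1b in cDC1- and cDC2-like cells, without control 3 Tnf in cDC2-like cells, and without knockout 3 Il1b and Tnf in cDC1-like cells. With the replicate number as a block, 3 pairs of gene and class passed, all of them Il1b, in B-, cDC1- and T-like cells, where pairing by number was not established. Of all genes, 63 of 10002, 6 of 7872 and 35 of 12238 passed in these classes, against 0 in each without the block. List genes passed 3 times with no filter, 4 times with the replicate block, and 0 to 14 times with 1 library left out, with 14 without knockout 3. The fold change of Il1r2 in neutrophil-like cells was 0.23 without both libraries numbered 2 and ran from -0.55 to 0.11 with 1 library left out, turning without control 2. With 1 library left out, Il1b in neutrophil-like cells ran from -0.25 to 0.0463, Il1a in macrophage-like cells from -0.31 to 1.51 and Tnf in NK-like cells from -0.00999 to 0.52. Tnf in cDC1-like cells was -0.13 with clusters in place of marker calls. Causes were not tested. Between classes, 299 of 311 values kept their call and 12 lost it.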

Other observations

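Hashtags divided knockout 3 and control 3 into single mice, and the levels per mouse are given without a test. In neutrophil-like cells, Il1b stood at 7844 and 5511 CPM in the mice of knockout 3, against 10982, 11550 and 8209 CPM in those of control 3, so both knockout 3 mice were below the control 3 mice. Il1r2 in the same cells overlapped, at 4890.5 and 4576 CPM in the mice of knockout 3, against 4064, 2653 and 4963 CPM in those of control 3. These values rest on 116 and 71 cells of knockout 3 and on 69, 12 and 18 cells of control 3. In endothelial-like cells, Il1a stood at 60.4 and 109 CPM in the mice of knockout 3, against 69.9, 28.3 and 17.2 CPM in those of control 3. Il1r1 in those cells stood at 295 and 142 CPM in the mice of knockout 3, against 141, 316 and 94.4 CPM in those of control 3. Across all libraries, the groups overlapped for each of these 4 gene and class pairs.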
